A study of Panax notoginseng with 12 samples.

Results

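The loci described here were 1252 assembled loci of *Panax notoginseng* roots that overlapped an annotated gene of the draft genome but had no match in the protein (nr) or nucleotide (nt) database. They were selected on their annotation and on their measured level: a gene model name, an empty nr and nt entry, a span of 300 nt or more, and a mean of 5 FPKM or more in at least 1 of the 4 groups (FPKM, the unit of the table, is the number of fragments scaled by transcript length and by library size). Of 146330 loci in the table, 138976 carried an annotated gene, 66714 of these had no hit, and 51636 of those spanned 300 nt or more. Of the 51636, 41367 were listed at 0 in all 12 libraries, 9017 were above 0 in a library but under the limit, and 1252 (2.42%) passed. They are called gene models without hit below, and they are set against 22592 loci of any kind that reached 5 FPKM in a group.

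*P. notoginseng*, a medicinal herb of the ginseng family, was grown in hydroponic culture. The study asked how roots responded to ammonium, which is toxic when given alone, and whether nitrate changed that response. The groups were 15A (15 mM ammonium), 15N (15 mM nitrate), 15AN (15 mM of each) and CK (no added nitrogen), with 3 root libraries each. The samples were labelled with a 3-day stage, whereas the methods describe 2-year-old seedlings harvested on day 3 of treatment. No genotype was named, and the libraries were made from pooled RNA. Since nothing stated that the 3 libraries of a group came from separate pools, the p-values below measure the spread between these libraries, which may be technical.

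Automated gene prediction on a draft plant genome yields many models that resemble no known protein. Such models can be genes restricted to a lineage, non-coding RNAs, untranslated or intronic pieces of a neighbouring gene, or transcripts from the opposite strand of a gene. Transcripts from opposite strands of the same stretch, called antisense transcripts, occur in plants as in other organisms, and some of them regulate the gene they overlap. Libraries of this series were depleted of ribosomal RNA only, without selection of polyadenylated RNA, so that RNAs without a poly(A) tail could enter them. Whether the libraries kept strand is not given in the sources used here, and without strand the reads of a gene and of its antisense partner cannot be told apart.

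The libraries resembled each other within groups. Over the 1252 gene models without hit, log2 levels correlated at 0.913 on average between libraries of a group (0.866 to 0.943) and at 0.836 between groups, against 0.949 and 0.868 over all loci tested. The summed FPKM of 12 root marker loci was 612 to 724 in 15A, 451 to 478 in 15N, 413 to 438 in 15AN and 420 to 433 in CK, with no locus at 0. The summed FPKM of 30 green-tissue loci was 574 to 1723 in 15A, with replicate 1 the highest, 606 to 677 in 15N, 606 to 698 in 15AN and 1299 to 1428 in CK, and its part in the differences below was not tested. In whole roots, fewer cells of a type and less RNA per cell cannot be told apart.

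The label of these loci held only in part. Of the 1252, 673 (53.8%) shared their exact span with 1 to 10 other loci, and 579 were alone in their span. The table gives such loci the merged span, so for them it is not the length of the transcript. Of the 673, 396 carried the name of a gene model that a described locus of the same span also carried: on the opposite strand for 239, on the same strand for 150, on both for 4, and with no strand to compare for 3. A further 83 shared their gene model name with an undescribed locus, and 194 shared the span under a name of their own. For those 396, no hit therefore means that this assembled piece had none, while another piece under the same gene model name had.

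By comparison, 25.7% of 16949 gene models with a hit shared their span, and 30.4% of 1350 loci without annotated gene and without hit did. The median span was 4090.5 nt, with 1062 nt for loci alone and 12168 nt for loci that shared. The longest, XLOC_043005 (gene model Ppse_ynau_089385, scaffold1508:71568-164938), was 93370 nt and held 9 loci, and the shortest, among them XLOC_088582, were 300 nt. The 1252 loci lay on 1145 scaffolds or contigs, 636 on the plus strand, 613 on the minus strand and 3 without strand. Coordinates are those of the table, and its genome build is not named in the sources used here.

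The level was part of the rule and is a description. The mean over the 12 libraries had a median of 13.8 FPKM (quartiles 6.23 and 40.4), against 14.5 FPKM over all loci tested. It was 18.6 FPKM for loci that shared their span and 9.85 FPKM for loci alone. Means above 100 FPKM were found for 165 gene models without hit (13.2%, against 10.04% of all loci tested), 118 of them sharing a span, and means above 1000 FPKM for 18, of which 17 shared one. The 3 loci just inside the limit, XLOC_042886, XLOC_124046 and XLOC_025860, had a highest group mean barely above 5 FPKM, and the 3 just outside, XLOC_117312, XLOC_081901 and XLOC_020780, had 4.98, 4.97 and 4.95 FPKM.

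**Figure D1:**
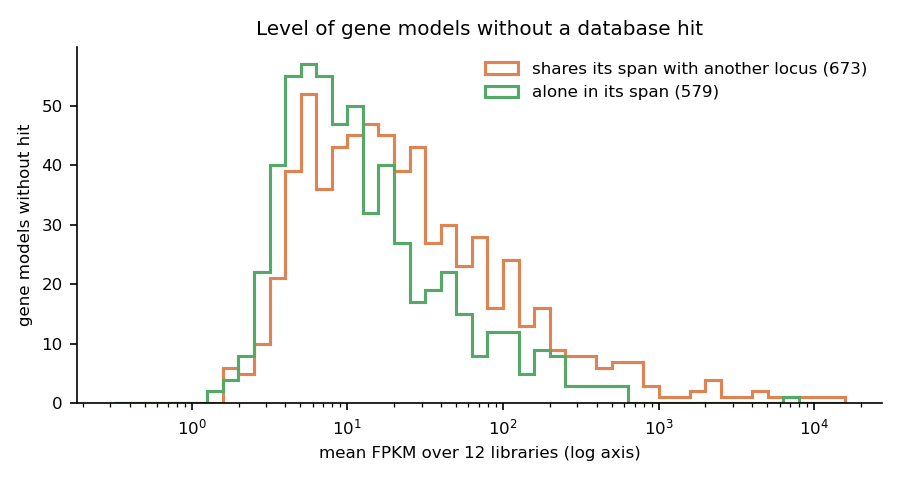
Number of gene models without hit (y axis) by mean FPKM over 12 libraries (x axis, log scale), for the 673 that shared their span and the 579 alone in it. The sharing loci reach above 1000 FPKM, and the loci alone lie mostly under 100 FPKM.

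The spread within groups was also described. The median within-group SD on the log2(FPKM + 1) scale was 0.293, against 0.142 for gene models with a hit and 0.298 for unannotated loci without hit. At least 1 library was listed at 0 for 138 (11.02%), against 1.21% of gene models with a hit and 5.71% of all loci tested. The share was 13.5% of unannotated loci without hit and 37.7% of shorter gene models without hit (under 300 nt). In 49 loci a group held both a library at 0 and a library above 10 FPKM. Between 223 and 262 of the loci above 0 in a library had exactly the FPKM of another locus in that library. In 15N replicate 2, for instance, XLOC_051929, XLOC_054071 and further loci, 12 in all, were each listed at 5.40 FPKM. The number of fragments behind an FPKM value is not known here, and low values are therefore of unknown precision.

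The most abundant locus, XLOC_140395 (Ppse_ynau_139981, scaffold8874:190499-195441, plus strand), had 21418, 13396 and 10747 FPKM in 15A, 14236, 13867 and 10917 FPKM in 15N, 11051, 22877 and 21217 FPKM in 15AN, and 11427, 18180 and 13984 FPKM in CK. The 4 groups overlapped, and no comparison was called. XLOC_113284, also among the 10 most abundant, had 12834, 10723 and 11145 FPKM in 15A, 9723, 7480.0 and 8510.0 FPKM in 15N, 6819, 7050.0 and 8168 FPKM in 15AN, and 4292, 5210 and 3934 FPKM in CK. Every treated library lay above every CK library. Among the comparisons with CK, the difference on the log2(FPKM + 1) scale passed both limits only in 15A (1.37 ± 0.15 SE, limma adjusted p = 3.0e-05). XLOC_010748, the only locus above 1000 FPKM that was alone in its span, averaged 6949 FPKM in 15A, 8354 FPKM in 15N, 8224 FPKM in 15AN and 5439 FPKM in CK, and was called in no comparison.

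Single libraries set the level of 2 loci. XLOC_117689 reached 134677 FPKM in 15A replicate 1, while all of the other 11 libraries held a 0. This locus brought the share of summed FPKM that gene models without hit held in 15A replicate 1 to 11.97%, which was 7.14% without it, against 6.37% to 8.09% in the other libraries. XLOC_059545 was listed at 3921 FPKM in CK replicate 2 and at 0 elsewhere, while the described locus on its other strand, a homeobox-leucine zipper protein HOX3-like gene (a class of transcription factor), averaged 17.1 FPKM in 15A, 13.2 FPKM in 15N, 7.97 FPKM in 15AN and 1.67 FPKM in CK.

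The limma fit on log2(FPKM + 1) took in all 22592 loci. A locus was called when its Benjamini-Hochberg adjusted p was under 0.05 and the difference exceeded 1, and values are differences on that scale with their SE, which understate the change of low loci. In 15A against CK, 143 gene models without hit were higher (11.4%, with 7.49% of all loci tested called higher) and 82 were lower (6.55%, with 6.82% called lower). In 15N against CK, 134 were higher (10.7%, with 6.85% overall) and 94 were lower (7.51%, with 7.64% overall). In 15AN against CK, 121 were higher (9.66%, with 5.30% overall) and 102 were lower (8.15%, with 6.93% overall). The share called higher was thus above that of all loci in each treatment, and the share called lower was close to it in 15A and 15N. The 3 comparisons share the CK libraries. For a named locus with a group mean under the level limit, differences from that group are a description, because another group brought it in.

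Some loci passed the level limit only through the group where they were high, so the counts were also taken where all 4 group means reached 5 FPKM, which held for 823 gene models without hit and for 16835 loci of all kinds. Here 87 (10.6%) lay above CK and 21 (2.55%) below it in 15A, with 6.74% and 2.83% of all such loci. The shares were 8.99% higher and 3.04% lower in 15N (5.96% and 3.29% of all such loci), and 8.14% higher and 3.65% lower in 15AN (4.03% and 3.00%). The split between higher and lower turned round when all libraries were brought to an equal total. Summed FPKM was 2042250 to 2593470 in 15A, 2002100 to 2174580 in 15N, 1776100 to 1800640 in 15AN and 1420310 to 1517710 in CK. With all libraries brought to an equal total, the loci called higher than CK numbered 65 for 15A, 75 for 15N and 85 for 15AN. Those called lower numbered 223 for 15A, 185 for 15N and 152 for 15AN. Under quantile normalization, 135 lay above and 88 below CK in 15A, 137 and 106 in 15N, and 132 and 108 in 15AN. Under median-of-ratios scaling it was 120 and 96 in 15A, 123 and 104 in 15N, and 113 and 116 in 15AN. At the authors' scaling and without 15A replicate 1, which stood apart in the green-tissue loci, 138 loci were called above CK and 85 below it in 15A.

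Between the treatments fewer loci were called. In 15N against 15A, 39 were higher (3.12%, with 1.96% of all loci) and 41 lower (3.27%, with 2.63%). In 15AN against 15A, 61 were higher (4.87%, with 3.18%) and 91 lower (7.27%, with 4.64%). In 15AN against 15N, 57 were higher (4.55%, with 2.80%) and 72 lower (5.75%, with 3.39%). In none of the 6 comparisons was a call made for 807 (64.5%), against 74.0% of all loci tested, and the median distance between the highest and lowest group mean was 0.92, against 0.66 over all loci.

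**Figure D2:**
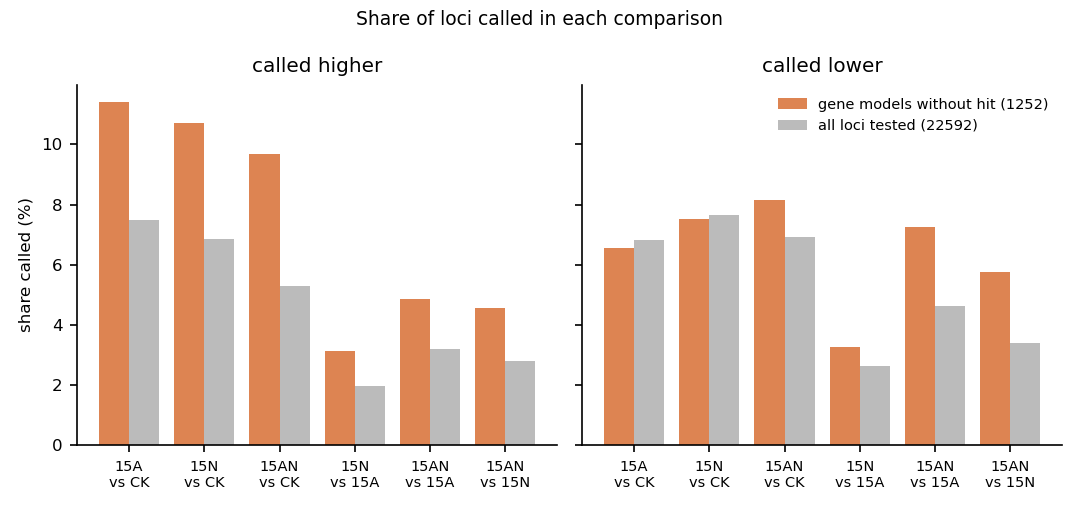
Share (%) of the 1252 gene models without hit and of the 22592 loci tested that were called higher (left) or lower (right) in each of 6 comparisons. In 15A against CK, 11.4% of gene models without hit and 7.49% of all loci were called higher.

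XLOC_040604 (Ppse_ynau_017399, scaffold14523:92660-100368, minus strand) rose with each nitrogen form alone. It had 5192, 4795 and 3619 FPKM in 15A, 3028, 2796 and 3397 FPKM in 15N, 181, 182 and 187 FPKM in 15AN, and 47.4, 44.7 and 35.5 FPKM in CK. No groups overlapped, and the roots given both forms lay far below the roots given either form alone. The difference was 6.70 ± 0.15 in 15A against CK (limma adjusted p = 3.0e-09) and 6.15 ± 0.15 in 15N against CK (adjusted p = 3.0e-09), and it was -4.61 ± 0.15 in 15AN against 15A (adjusted p = 4.1e-08) and -4.06 ± 0.15 in 15AN against 15N (adjusted p = 1.0e-07). Its span also held a probable carboxylesterase 11 locus on the other strand, which averaged 5.62 FPKM in 15A, 4.38 FPKM in 15N, 5.83 FPKM in 15AN and 6.45 FPKM in CK and was not called in these comparisons, and a UPF0392 protein locus at 3.54 to 4.64 FPKM.

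XLOC_012510 (Ppse_ynau_037101, C4945907:4423-8553, plus strand) was high in all 3 treatments. It had 4517, 6197 and 5156 FPKM in 15A, 5458, 5027 and 5777 FPKM in 15N, 5377, 5035 and 5131 FPKM in 15AN, and 994, 1054 and 851 FPKM in CK. The treated libraries overlapped with each other and stood above every CK library, with differences of 2.44 ± 0.13 in 15A, 2.49 ± 0.13 in 15N and 2.43 ± 0.13 in 15AN (limma adjusted p = 5.4e-07 or less). XLOC_012511, a gene model without hit on the other strand of this span and under the same name, averaged 231 FPKM in 15A, 251 FPKM in 15N, 226 FPKM in 15AN and 30.0 FPKM in CK, and was called higher in all 3 treatments as well.

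XLOC_056741 (Ppse_ynau_055317) had 859, 474 and 437 FPKM in 15A, 107, 121 and 115 FPKM in 15N, 15.3, 39.6 and 0 FPKM in 15AN, and 38.9, 0 and 71.96 FPKM in CK. Every 15A library lay above every other library, but a library at 0 in 15AN and in CK widened the error. The difference was 5.30 ± 1.61 in 15A against CK (limma adjusted p = 0.019) and -6.01 ± 1.61 in 15AN against 15A (adjusted p = 0.015). The call in 15A against CK was lost without CK replicate 2 (3.39) or 15A replicate 1 (4.999), and that in 15AN against 15A without 15AN replicate 3 (-4.45). Both calls were also lost at a pseudocount of 0.1 (6.43 and -7.16). The described locus on its other strand, probable protein S-acyltransferase 14 (an enzyme that attaches fatty acids to proteins), averaged 7.18 FPKM in 15A, 9.42 FPKM in 15N, 7.13 FPKM in 15AN and 2.91 FPKM in CK, and was called higher in all 3 treatments.

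XLOC_016673 and XLOC_102401, both called higher in a treatment, had low levels in CK. XLOC_016673 had 16.9, 27.5 and 40.6 FPKM in 15A, 37.2, 40.9 and 26.2 FPKM in 15N and 15.3, 26.2 and 26.1 FPKM in 15AN, and its CK libraries lay at or under 2.58 FPKM. Every treated library was above CK, by 3.70 ± 0.46 in 15A, 4.05 ± 0.46 in 15N and 3.43 ± 0.46 in 15AN (limma adjusted p = 0.00021 or less). XLOC_102401, alone in its span, had 6.73, 17.5 and 19.0 FPKM in 15A, 1.78, 0.609 and 0.626 FPKM in 15N, 8.22, 5.76 and 4.54 FPKM in 15AN, and 0.152, 0.157 and 0.154 FPKM in CK. Its 15N libraries lay below both groups that held ammonium, with a difference of -2.87 ± 0.36 in 15N against 15A (adjusted p = 0.00047). XLOC_016673 passed the level limit only through the treated groups, and XLOC_102401 only through 15A and 15AN. The differences of both from their low groups are therefore a description.

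XLOC_029435 had 37.6, 65.5 and 26.7 FPKM in 15A, 0.0131, 26.5 and 39.9 FPKM in 15N, 7.76, 49.7 and 6.89 FPKM in 15AN, and values under 0.001 FPKM in the CK libraries. Against CK it was called in all 3 treatments, with a limma adjusted p of 0.0044 in 15A, 0.042 in 15N and 0.025 in 15AN. The size of these differences depends on the pseudocount, and at a pseudocount of 5 the calls in 15N (1.94) and 15AN (2.02) were lost. The call in 15N was lost without any 1 of 10 libraries (differences of 2.399 to 3.38), all but 15N replicate 1 and 15AN replicate 2, and the call in 15AN without 15AN replicate 2 (3.06) or any CK library (3.92 to 3.93). A second gene model without hit under its name, XLOC_029436, averaged 49.9 FPKM in 15A, 25.8 FPKM in 15N, 17.0 FPKM in 15AN and 4.61 FPKM in CK, and a described but uncharacterized locus on the other strand averaged 179 FPKM in 15A, 118 FPKM in 15N, 97.4 FPKM in 15AN and 30.6 FPKM in CK.

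Among the loci called lower than CK, XLOC_047327 (Ppse_ynau_097979, scaffold16062:16628-17096), alone in its span, had 24.1, 53.0 and 68.2 FPKM in 15A, 9.78, 10.3 and 8.56 FPKM in 15N, 55.7, 61.1 and 46.1 FPKM in 15AN, and 205, 267 and 197 FPKM in CK. All treated libraries lay below CK, and the 15N libraries lay below every other library. The difference was -4.40 ± 0.31 in 15N against CK (limma adjusted p = 1.9e-06), -2.29 ± 0.31 in 15A (adjusted p = 0.00016) and -2.01 ± 0.31 in 15AN (adjusted p = 0.00046).

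XLOC_024208 (Ppse_ynau_037927) had 1.10, 1.03 and 0.503 FPKM in 15A, 1.53, 0.498 and 2.56 FPKM in 15N, 0, 0 and 1.79 FPKM in 15AN, and 30.7, 51.3 and 20.1 FPKM in CK. XLOC_140812 had 2.60 FPKM or less in every treated library, against 14.4, 20.02 and 14.6 FPKM in CK. Both were alone in their span, both were separated from CK in all 3 treatments, and both were called lower in each of them, with -4.14 ± 0.48 for XLOC_024208 and -3.20 ± 0.46 for XLOC_140812 in 15A (limma adjusted p = 5.4e-05 and 0.00024). Both passed the level limit only through CK, the group where they were high, so their separation and these differences are a description.

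XLOC_107344, also alone in its span, had 2.80, 10.8 and 7.85 FPKM in 15A, 19.3, 30.3 and 12.7 FPKM in 15N, 1.32, 1.37 and 2.02 FPKM in 15AN, and 43.7, 41.2 and 40.7 FPKM in CK. The 4 groups were separate, in the order 15AN, 15A, 15N and CK by rising level, and each of the 6 differences was called. In 15AN the difference was -4.07 ± 0.39 against CK (limma adjusted p = 2.2e-05), -1.53 ± 0.39 against 15A (adjusted p = 0.012) and -3.01 ± 0.39 against 15N (adjusted p = 0.00037).

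Several loci divided the roots by whether nitrate was present. XLOC_030174, alone in its span, had 8.71, 9.98 and 11.3 FPKM in 15N and 6.63, 10.98 and 12.4 FPKM in 15AN, against 29.2, 41.8 and 38.9 FPKM in 15A and 44.7, 42.9 and 46.6 FPKM in CK. The nitrate groups overlapped with each other and lay below both others, with differences of -1.77 ± 0.20 in 15N against 15A and -1.80 ± 0.20 in 15AN against 15A (limma adjusted p = 0.00024 and 0.0001). XLOC_020249, also alone, had 1.504, 3.72 and 1.75 FPKM in 15N and 1.89, 0.559 and 1.10 FPKM in 15AN, against 14.6, 16.5 and 17.5 FPKM in 15A and 9.51, 12.2 and 18.7 FPKM in CK. It showed the same division, with -2.43 ± 0.31 in 15N against 15A and -3.02 ± 0.31 in 15AN against 15A (adjusted p = 0.00046 and 5.5e-05). XLOC_020249 passed the level limit only through 15A and CK, the groups where it was high, so these differences are a description.

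**Figure D3:**
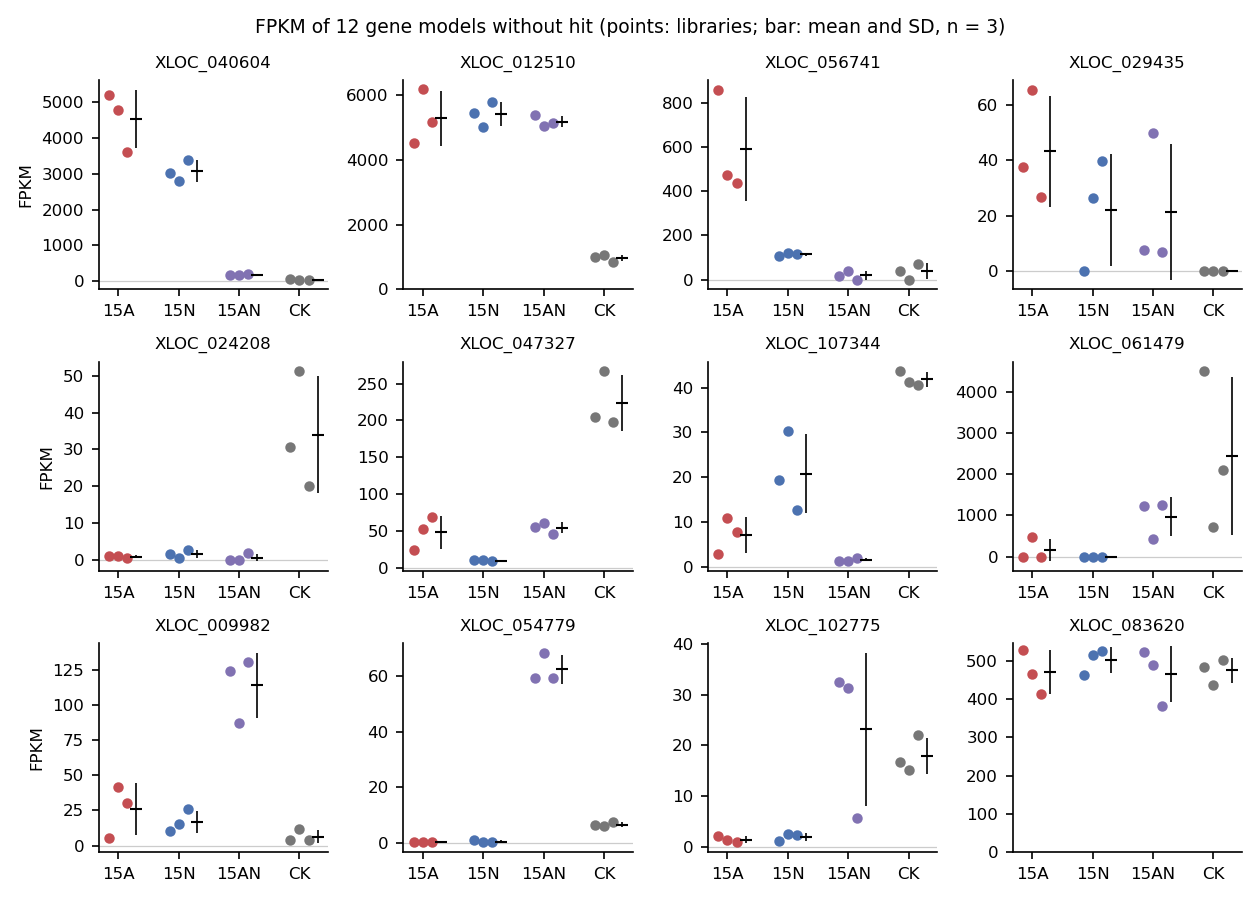
FPKM (y axis, linear) of 12 gene models without hit in 15A, 15N, 15AN and CK, with a point for each library and a bar for the mean and SD of 3 libraries. XLOC_040604 lies between 2796 and 5192 FPKM in 15A and 15N and at 187 FPKM or less in 15AN and CK, whereas XLOC_083620 overlaps between all groups.

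XLOC_054779 (Ppse_ynau_031747, scaffold17797:6122-7368, minus strand) was high when both forms were given. It had 59.1, 68.2 and 59.2 FPKM in 15AN, against 0.399, 0.375 and 0.366 FPKM in 15A, 1.11, 0.362 and 0.372 FPKM in 15N, and 6.44, 6.11 and 7.73 FPKM in CK. Both nitrogen forms alone lay below CK and their combination above it. The difference was 3.03 ± 0.17 in 15AN against CK (limma adjusted p = 7.7e-07), -2.49 ± 0.17 in 15A against CK (adjusted p = 1.4e-06) and -2.29 ± 0.17 in 15N against CK (adjusted p = 2.5e-06). The described locus on the other strand under the same gene model name, XLOC_054777, was a DELLA protein GAIP gene, a class of repressors of gibberellin signalling. It averaged 23.1 FPKM in 15AN, 0.451 FPKM in 15A, 1.24 FPKM in 15N and 6.09 FPKM in CK, and was called in the same direction as XLOC_054779 in all 3 comparisons with CK.

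XLOC_009982 had 124, 87.1 and 131 FPKM in 15AN, against 5.52, 41.4 and 30.4 FPKM in 15A, 10.3, 15.0 and 25.7 FPKM in 15N, and 3.75, 11.6 and 3.78 FPKM in CK. Its 15AN libraries lay above all others, by 4.10 ± 0.66 over CK (limma adjusted p = 0.00064). The described locus of its span, on the same strand and under the same name, was at or under 0.848 FPKM in every group mean. XLOC_102775, alone in its span, had 32.5, 31.3 and 5.75 FPKM in 15AN, against 2.15, 1.28 and 0.895 FPKM in 15A, 1.09, 2.48 and 2.36 FPKM in 15N, and 16.8, 15.1 and 21.9 FPKM in CK. Its 15AN and CK libraries overlapped, and both groups lay above 15A and 15N.

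Conversely, XLOC_015638 and XLOC_024249, both alone in their span, were lowest in 15AN. XLOC_015638 had 0.616, 0.638 and 0.313 FPKM in 15AN, against 3.84, 14.8 and 10.9 FPKM in 15A, 13.2, 16.3 and 11.4 FPKM in 15N, and 13.3, 11.3 and 15.3 FPKM in CK. The 15AN libraries were separate from the other 9, with -3.23 ± 0.36 against CK (limma adjusted p = 5.6e-05). XLOC_024249 had 1.02, 0 and 0 FPKM in 15AN, against 15.3, 6.37 and 8.56 FPKM in 15A, 7.11, 7.70 and 9.88 FPKM in 15N, and 1.15, 1.19 and 1.16 FPKM in CK. It was higher than CK in both single treatments, by 2.27 ± 0.33 in 15A and 2.08 ± 0.33 in 15N (adjusted p = 0.00024 and 0.00045), and was not called in 15AN against CK (-0.78 ± 0.33). XLOC_024249 passed the level limit only through 15A and 15N, and XLOC_015638 only through the groups other than 15AN. These are the groups where they were high, so the differences are a description.

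Some loci were listed at 0 in every library of a group and above 5 FPKM in every library of another, which held for 19 gene models without hit (1.52%) and for 1.15% of all loci tested. Of the 19, 11 were alone in their span. With 15N at 0 throughout, XLOC_061479 had 1228, 424 and 1248 FPKM in 15AN, 0, 478 and 0 FPKM in 15A, and 4502, 713 and 2098 FPKM in CK. It lay on the other strand of a TRANSPORT INHIBITOR RESPONSE 1-like locus, whose relatives in *Arabidopsis* encode auxin receptors, and that locus averaged 2.57 FPKM in 15N, 6.07 FPKM in 15AN, 4.59 FPKM in 15A and 6.38 FPKM in CK. Of the 19, 16 had at least 1 value exactly tied with another locus of the same library, as did 669 of all 1252 gene models without hit.

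XLOC_021051 was listed at 0 in all 9 treated libraries, against 11.2, 9.33 and 12.5 FPKM in CK. XLOC_016440 had 8.004, 14.6 and 14.0 FPKM and XLOC_137728 had 12.4, 16.9 and 7.46 FPKM in 15N, and both were listed at 0 in the other 9 libraries. XLOC_049615 had 9.46, 13.3 and 12.7 FPKM in 15AN, 2.14, 2.51 and 0 FPKM in 15A, and 0 in every library of 15N and CK. These loci passed the level limit only through the group where they were high, so their levels are a description, and no fold is given against a group at 0.

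Whether the effect of nitrogen forms depended on each other was tested with the interaction, the difference between 15AN and 15A minus the difference between 15N and CK. It was above 0 for 118 gene models without hit (9.42%, with 10.2% of all loci) and below 0 for 216 (17.3%, with 12.3% of all loci). It was -10.75 ± 0.21 for XLOC_040604 (limma adjusted p = 1.0e-09), -9.03 ± 2.27 for XLOC_056741 (adjusted p = 0.008) and 7.80 ± 0.24 for XLOC_054779 (adjusted p = 1.2e-08). At an equal total for all libraries, the counts were 331 above and 87 below 0, so their direction turned round under that scaling. The median interaction of all loci was 0.72 there, 0.04 under median-of-ratios scaling and -0.01 under quantile normalization.

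The response to ammonium without nitrate (15A against CK) and with nitrate (15AN against 15N) come from separate libraries. Across the 1252 loci these differences correlated at -0.228 (Pearson), against -0.192 over all loci tested, and those of nitrate without and with ammonium at -0.186, against -0.129. By rank (Spearman) the order turned round, with -0.160 against -0.251 over all loci for ammonium and -0.119 against -0.169 for nitrate. For loci alone in their span the Pearson values were -0.117 and -0.0953, and the Spearman values were -0.166 and -0.0945. These are descriptions over loci that share libraries and, in part, spans.

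**Figure D4:**
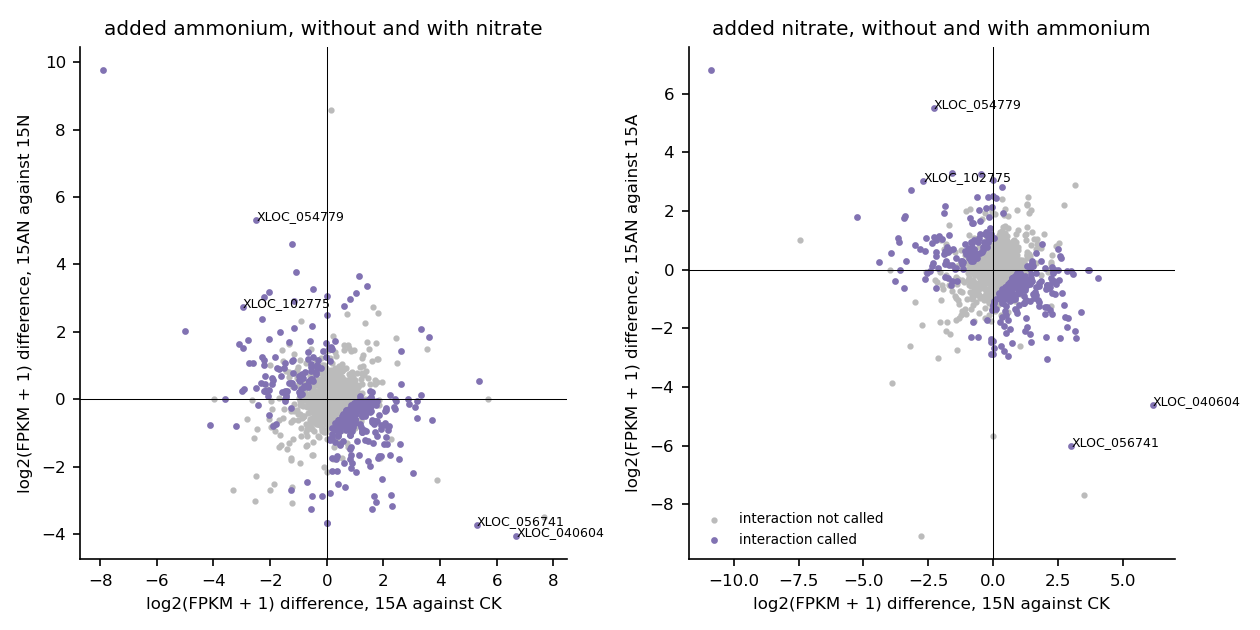
Differences on the log2(FPKM + 1) scale for 1252 gene models without hit: added ammonium with nitrate (y) and without (x) on the left, added nitrate with ammonium (y) and without (x) on the right, including loci listed at 0 in a group. XLOC_040604 and XLOC_056741 lie at the lower right and XLOC_054779 at the upper left of both panels.

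Gene models without hit that carried the name of a described locus were set against that locus by strand. Over 198 pairs on opposite strands, the differences of the members of a pair correlated at 0.456 to 0.576 (Pearson) over the 6 comparisons. Over 96 pairs on the same strand the values were 0.0432 to 0.286. Loci alone in their span, a separate set, were paired with the described locus of the nearest other span, at a median distance of 9503.5 nt. These 332 pairs gave -0.03 to 0.09. Since the loci alone had a lower median level (9.85 FPKM, against 20.5 FPKM), this is not a comparison over the same loci. The pairs are not independent replicates, and reads of opposite strands cannot be told apart if the libraries kept no strand.

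Of the 143 loci called higher in 15A than CK, 61 had at least 1 described and tested locus in their span. At least 1 such locus was called higher for 19 and lower for 1. Of the 82 called lower, 24 had such a locus, with at least 1 called lower for 12 and higher for 1. In 15N at least 1 was called the same way for 18 of 50 higher and 17 of 30 lower loci. In 15AN it was 12 of 44 and 16 of 30. Calls the other way were found for 1 higher and 0 lower loci in both. Of all loci tested, 7.49% were called higher and 6.82% lower in 15A, 6.85% and 7.64% in 15N, and 5.30% and 6.93% in 15AN. These shares are per locus, whereas a span can hold several described loci. Of 400 pairs under a shared gene model name, the described locus also passed the level limit in 294. Of these, the locus without hit was the more abundant in 129 (43.9%), with medians of 20.9 FPKM for loci without hit and 21.6 FPKM for described loci. Since FPKM divides by transcript length, this compares levels per length.

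**Figure D5:**
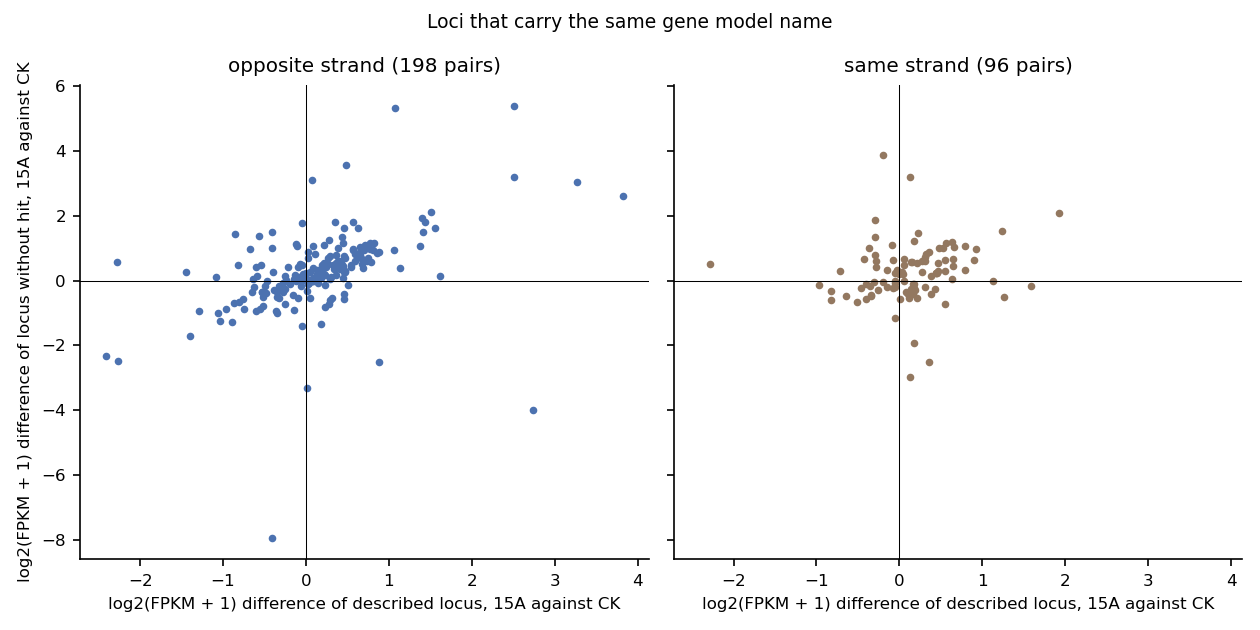
Difference on the log2(FPKM + 1) scale in 15A against CK of loci without hit (y) and of the described locus under the same gene model name (x), for 198 pairs on opposite strands (left) and 96 on the same strand (right). The opposite-strand pairs follow the diagonal more closely (Pearson 0.472, against 0.151). The pair of XLOC_061479 lies apart at the bottom, off the diagonal, with its described locus at -0.407.

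Gene models without hit also shared spans with each other, in 54 pairs, 37 of them on opposite strands. XLOC_085445 and XLOC_085449, on the plus and minus strand of the same 303 nt, averaged 475 and 751 FPKM in 15A, 627 and 1076 FPKM in 15N, 266 and 428 FPKM in 15AN, and 313 and 528 FPKM in CK. The minus-strand locus was the higher in every group, and both were highest in 15N and lowest in 15AN. XLOC_115534 had 19.3, 0 and 0 FPKM in 15A, 0, 11.7 and 0 FPKM in 15N, 25.8, 0 and 31.5 FPKM in 15AN, and 101, 72.03 and 92.7 FPKM in CK, and XLOC_115540 on its other strand averaged 3.67 FPKM in 15A, 6.09 FPKM in 15N, 7.44 FPKM in 15AN and 29.0 FPKM in CK. Both lay highest in CK, but each treatment held a library of XLOC_115534 at 0.

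Outside shared spans, 24 pairs of gene models without hit were next to each other within 10 kb, with a median gap of 1351 nt. Both loci were called the same way against CK in 2 of them for 15A (8.33%), 1 for 15N (4.17%) and 1 for 15AN (4.17%). Only 1 locus of the pair was called in 4 pairs for 15A (16.7%), 7 for 15N (29.2%) and 4 for 15AN (16.7%). Of 6862 such pairs over all loci tested, 2.84% were called the same way in 15A, 2.58% in 15N and 1.95% in 15AN. Only 1 locus was called in 21%, 21.4% and 17.4% of these pairs. With 24 pairs of gene models without hit, such shares are coarse. Between treatments no pair of gene models without hit was called the same way, against 0.583% to 0.976% of pairs over all loci. Only 1 locus was called in 1 pair in 15N against 15A (4.17%, with 6.79% over all loci). This held for 5 pairs in 15AN against 15A (20.8%, with 10.4%) and for 7 in 15AN against 15N (29.2%, with 8.70%). In none of the 6 comparisons was a pair called in opposite directions. Over all loci this held for only 0.0874% to 0.67% of pairs, too few to be looked for among 24.

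Among loci with a mean of 20 FPKM or more, the 5 steadiest were XLOC_126743, XLOC_083620, XLOC_009303, XLOC_123751 and XLOC_035278. XLOC_126743 had 125, 108 and 105 FPKM in 15A, 122, 118 and 113 FPKM in 15N, 124, 121 and 109 FPKM in 15AN, and 108, 117 and 123 FPKM in CK. XLOC_035278, alone in its span, lay between 101 and 141 FPKM in all 12 libraries. The groups overlapped for all 5 loci and none was called in any comparison. Of 491 loci at this level, 103 had group means within 0.5 of each other on the log2(FPKM + 1) scale.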

How the data were processed

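Ribosomal RNA-depleted libraries of pooled root RNA (12 libraries, 4 groups of 3, grouped by the sample titles and treatment labels) were sequenced and processed by the authors. According to the submitters' processing notes these steps used TopHat2 2.0.13, Cufflinks 2.2.1 and Cuffnorm 2.2.1 on the published genome, and the assembled loci were compared with the genome's gene models and with nr and nt. The deposited table holds FPKM per locus and library, normalised by the authors, with coordinates, gene model names and database descriptions. It holds no counts, so the depth behind each value cannot be read from it, and a count model was not used. The read totals per library that the study lists were not used here.

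Gene models without hit and all lists were chosen with earlier results of these data known. Loci with a mean of 5 FPKM in at least 1 group (22592) entered a limma 3.58.1 fit (R 4.3.3) on log2(FPKM + 1) with a mean-variance trend over all 4 groups, and p-values were adjusted over all loci. The script was tested on simulated data. The named loci were the 10 most abundant, up to 5 called in each direction per comparison with groups that did not overlap and 10 FPKM in a group, 3 per direction of the interaction, the 5 steadiest, loci with over 80% of their level in 1 library, the ones nearest the limits, neighbouring pairs and the longest. Not every locus under this rule is given with values, and partners in the spans of named loci were added, as were XLOC_085445, XLOC_051929 and loci from the set at 0 in a group, which were chosen after their values were seen. Alternatives were other pseudocounts, filters, scalings, fits with the replicate block, and leaving out each library. No genome sequence was used here.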

Additional observations from a re-analysis of the deposited data

Results flagged for a closer look

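The effect of adding nitrate differed between roots with and without ammonium for these named loci, by the interaction term of the limma fit with adjusted p under 0.05 and a size over 1. Loci with every library of a group under 0.001 FPKM were left out, since no size can be given for them. The interaction on the log2(FPKM + 1) scale was below 0 for XLOC_040604 (-10.75), XLOC_056741 (-9.03), XLOC_024249 (-5.13), XLOC_016673 (-4.32), XLOC_015638 (-2.71), XLOC_012510 (-2.51), XLOC_102401 (-1.76), XLOC_113284 (-1.59), XLOC_112604 (-1.30) and XLOC_032348 (-1.29). It was above 0 for XLOC_054779 (7.80), XLOC_115534 (7.06), XLOC_056626 (5.85), XLOC_102775 (5.71), XLOC_047327 (4.67), XLOC_030573 (4.49), XLOC_024208 (3.38) and XLOC_140812 (2.41). XLOC_024208 and XLOC_140812 passed the level limit only through CK, and each of their treated libraries lay under 5 FPKM, so their interaction is a description. That of other listed loci with a group mean under 5 FPKM is a description as well. The part of low levels in these values was not tested. At a pseudocount of 0.1 the interaction was no longer called for XLOC_024208 (2.72), XLOC_140812 (2.85) and XLOC_115534 (10.39).

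XLOC_056626, alone in its span, had 21.4, 28.1 and 27.9 FPKM in 15AN, against 14.0, 0.874 and 1.42 FPKM in 15A, 0, 0 and 0.289 FPKM in 15N, and 9.07, 9.56 and 7.45 FPKM in CK. XLOC_030573, in a span of 8 loci, had 14.4 FPKM or less in every treated library, against 35.1, 27.7 and 37.4 FPKM in CK. The call for XLOC_115534 was lost without replicate 2 or 3 of 15A, replicate 1 or 3 of 15N, or replicate 1 or 3 of 15AN (interaction of 6.17 to 6.45). The call for XLOC_112604 was lost without any 1 of 10 libraries (-1.41 to -0.917), all but 15A replicate 3 and 15AN replicate 2. With all libraries at an equal total, the interaction was no longer called for XLOC_113284 (-0.720), XLOC_032348 (-0.422), XLOC_112604 (-0.428) and XLOC_102401 (-1.33). Quantile normalization also removed the call for XLOC_113284 (-0.322), XLOC_032348 (-0.379) and XLOC_112604 (-0.264). That of XLOC_112604 was lost as well under median-of-ratios scaling (-1.17) and without the level filter (-1.30). A pseudocount of 5 removed the call for XLOC_102401 (-0.954). Groups of 3 libraries are too small for the test of single outlying samples.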

How the results depend on the processing

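Numbers of gene models without hit called moved by over 1.5 times in these cases. A pseudocount of 5 left 52 below CK in 15A, 88 above and 56 below CK in 15N, 58 below CK in 15AN, 21 above and 19 below 15A in 15N, 34 above and 46 below 15A in 15AN, and 36 above 15N in 15AN. Requiring a mean of 10 FPKM in a group left 50 (15A), 58 (15N) and 58 (15AN) below CK, 24 above 15A in 15N, 38 above 15A in 15AN and 47 below 15N in 15AN. Requiring a mean of 5 FPKM over all libraries, which tests fewer loci, left 51, 58, 62, 23, 38 and 46. With equal library totals the median difference of all loci was -0.50 (15A), -0.41 (15N) and -0.20 (15AN) against CK. It was 0.29 in 15AN against 15A, 0.22 in 15AN against 15N and 0.72 for the interaction. This scaling gave 65 above and 223 below CK in 15A, 75 above and 185 below CK in 15N, 119 above and 60 below 15A in 15AN, 92 above 15N in 15AN, and 331 above and 87 below 0 for the interaction. A fit on 2 groups only placed 25 above 15A in 15N. Among loci above 0 in all libraries, an alternative chosen after seeing the data, 39 lay above 15A in 15AN.

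Leaving out each library in turn gave 127 to 154 above and 77 to 90 below CK in 15A, 123 to 137 and 84 to 96 in 15N, and 114 to 127 and 92 to 106 in 15AN. With a replicate block, 141 lay above and 80 below CK in 15A, 133 and 91 in 15N, and 120 and 101 in 15AN. Deviations of libraries with the same number correlated at -0.0998 to 0.0505, and 4 of 12 libraries correlated best with their own number. No pairing by number was seen in these values. Whether libraries of a number shared a pool or a run is not known here. Of 80 results for 58 named loci, none reversed, and 19 lost their call under at least 1 alternative, among them results of XLOC_029435, XLOC_056741, XLOC_115534, XLOC_079464, XLOC_129727, XLOC_047273, XLOC_036855 and XLOC_112604. FPKM without counts does not give the depth behind a value. The cause of these shifts was not tested.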
